A study of Rattus norvegicus with 4 samples.

Results

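T, natural killer (NK) and innate lymphoid cells were followed in the irradiated rat esophagus by single-cell RNA sequencing. They were picked out barcode by barcode from transcript counts, and 309 of 40724 barcodes that passed the quality limits were taken. A barcode, the tag that stands for 1 droplet and usually for 1 cell, was kept when it held at least 500 unique molecular identifiers (UMIs, each counting 1 captured transcript) and at most 20% mitochondrial UMIs. A kept barcode became a member when 7 lymphoid genes (Cd3e, Cd3d, Cd3g, Cd2, Cd247, Nkg7 and Il2rb) together gave at least 3 UMIs over at least 2 genes. It also had to lack UMIs of the myeloid genes C1qa, Csf1r and Fcnb, to hold at most 5 UMIs of the keratin gene Krt5 per 10000, and at most 50 UMIs of the fibroblast genes Col3a1 and Dcn per 10000. An eighth gene of the rule, Il7r, did not match a feature name and was not analysed here. Levels of these genes chose the members and are given below only as description.

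The study used male Sprague-Dawley rats, 6 weeks old, whose esophageal region received X-rays. The first library came from rats given 1 dose of 35 Gy and killed at day 7 (single 35 Gy, day 7). Both fractionated libraries came from rats given 5 daily doses of 7 Gy and killed at day 7 or day 14 (5 × 7 Gy, day 7 and 5 × 7 Gy, day 14). The control library came from rats given 5 × 0 Gy and killed at day 7. Each library was made from the pooled esophagi of 5 rats, so every group is 1 library with no replicate, and the control was taken at day 7 only. All tissues were kept cold for shipping, for up to 48 h, and were then digested with enzymes, and dead cells were removed. No test between groups was possible, and the intervals given are exact 95% intervals that cover counting error only, not the spread between rats or libraries.

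T cells recognise antigen through a receptor whose signal is carried into the cell by the CD3 chains (Cd3e, Cd3d, Cd3g) and the zeta chain (Cd247). CD4 T cells help or restrain other cells, and the regulatory T cells among them are directed by the transcription factor Foxp3. CD8 T cells and NK cells kill targets with perforin and granzymes. Gamma-delta T cells, Th17 cells and type 3 innate lymphoid cells can release interleukin-17 at epithelial barriers, where it acts on keratinocytes and stromal cells and draws in neutrophils.

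Among these cells, Il17a and Il17f transcripts were found mainly in the 5 × 7 Gy, day 14 library, and both genes lie on rat chromosome 9. The 250 bases before each start are shown because the 2 transcripts moved together. The sequences are from RefSeq on build GRCr8, 5′ to 3′ on the gene's own strand, at chr9:30640594-30640843 (plus strand) for Il17a and chr9:30697919-30698168 (minus strand) for Il17f. Capitals mark matches to the motifs searched.
Il17a: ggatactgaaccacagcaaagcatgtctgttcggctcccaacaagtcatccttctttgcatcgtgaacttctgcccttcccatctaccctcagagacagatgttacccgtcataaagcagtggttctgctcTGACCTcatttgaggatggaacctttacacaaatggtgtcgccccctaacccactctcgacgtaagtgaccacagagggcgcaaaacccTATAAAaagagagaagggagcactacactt
Il17f: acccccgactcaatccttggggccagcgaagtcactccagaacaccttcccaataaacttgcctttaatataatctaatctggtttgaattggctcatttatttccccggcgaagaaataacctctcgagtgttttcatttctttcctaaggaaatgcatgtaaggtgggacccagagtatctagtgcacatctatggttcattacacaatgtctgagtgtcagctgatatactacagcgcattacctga
The windows were searched on both strands for 4 motifs, and the 2 matches found did not overlap. The Il17a window held AGGTCA, the half-site read by the ROR family of nuclear receptors, on the opposite strand (TGACCT as printed), 119 bases before the start, and the TATA box, spelled TATAAA, 30 bases before the start. The AP-1 motif (TGANTCA) had no match in either window. The STAT motif, searched as TTCNNNGAA, had none in either, and the Il17f window held none of the 4. Of 33469 rat promoter windows of the same length, 14.1% held the ROR half-site, 12.9% the TATA box, 7.67% the STAT motif and 6.34% the AP-1 motif.

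Members were sparse in every library. They numbered 144 of 9744 kept barcodes in single 35 Gy, day 7, 72 of 9082 in 5 × 7 Gy, day 7, 67 of 10080 in 5 × 7 Gy, day 14 and 26 of 11818 in the control. Their share was 1.48% (1.25 to 1.74) in single 35 Gy, day 7, 0.793% (0.621 to 0.997) in 5 × 7 Gy, day 7, 0.665% (0.515 to 0.843) in 5 × 7 Gy, day 14 and 0.22% (0.144 to 0.322) in the control. All 3 irradiated libraries lay above the control, and single 35 Gy, day 7 lay above both fractionated libraries. The share was 6.72 times the control's in single 35 Gy, day 7 (4.40 to 10.6), 3.60 times in 5 × 7 Gy, day 7 (2.27 to 5.88) and 3.02 times in 5 × 7 Gy, day 14 (1.90 to 4.95). At day 7, the fractionated share was 0.536 times the single-dose share (0.399 to 0.717). Within the fractionated schedule, the day 14 share was 0.838 times the day 7 share (0.592 to 1.19), an interval that holds no change.

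A share depends on the other cells in its library, and Krt5-rich epithelial barcodes made up very different parts of the 4. Barcodes with at most 5 Krt5 UMIs per 10000 numbered 6683 in single 35 Gy, day 7, 4141 in 5 × 7 Gy, day 7, 9658 in 5 × 7 Gy, day 14 and 10133 in the control. Over those barcodes alone, the share of members was 2.15% (1.82 to 2.53) in single 35 Gy, day 7, 1.74% (1.36 to 2.18) in 5 × 7 Gy, day 7, 0.694% (0.538 to 0.88) in 5 × 7 Gy, day 14 and 0.257% (0.168 to 0.376) in the control. Members were still a larger share of each irradiated library than of the control. The gap between the fractionated and the single dose at day 7 narrowed to 0.807 times (0.599 to 1.08), and the day 14 share became 0.399 times that of day 7 (0.282 to 0.564). Fewer epithelial cells recovered and more lymphoid cells present cannot be told apart from these shares.

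**Figure D1:**
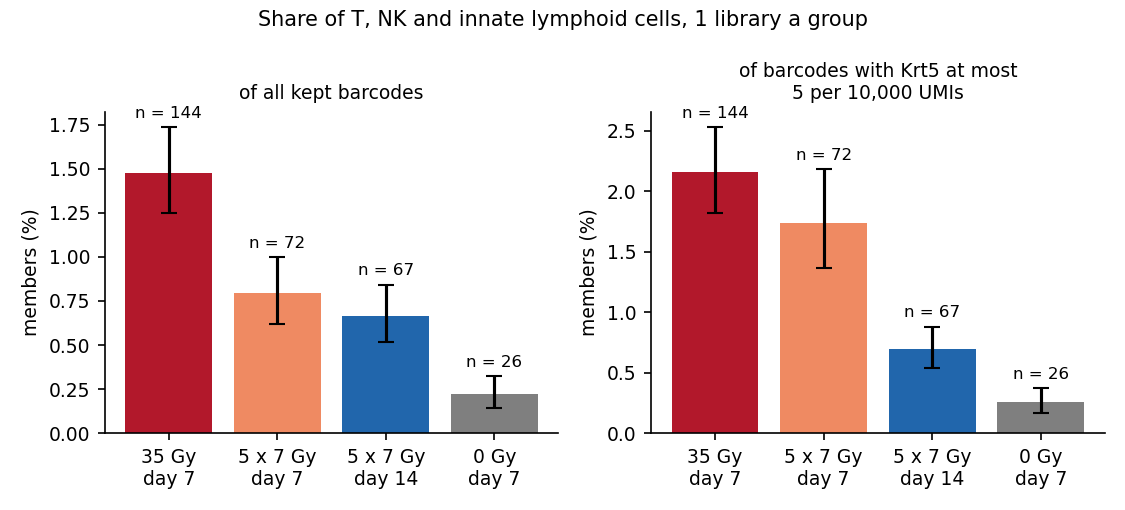
Share of members among all kept barcodes and among barcodes with little Krt5 (percent), by library, with exact 95% binomial intervals. The control library is lowest on both denominators, and the day 7 fractionated library stands closer to the single-dose library when Krt5-rich barcodes are left out.

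The label was checked against genes outside the rule. Ptprc (CD45, carried by all leukocytes) was found in 131 of 144 members of single 35 Gy, day 7, 46 of 72 of 5 × 7 Gy, day 7, 46 of 67 of 5 × 7 Gy, day 14 and 21 of 26 of the control, 79.0% in all. Its share among Krt5-rich barcodes was 6.43% in single 35 Gy, day 7, 0.573% in 5 × 7 Gy, day 7, 2.62% in 5 × 7 Gy, day 14 and 0.686% in the control. B or plasma cell markers gave 6 UMIs in members of single 35 Gy, day 7, 3 in 5 × 7 Gy, day 7, 2 in 5 × 7 Gy, day 14 and 2 in the control. Mast cell or basophil markers gave 14, 2, 2 and 0 UMIs in the same order. Macrophage or monocyte markers include C1qa, Csf1r and Fcnb, which the rule required to be absent. At least 1 of these markers was present in 82, 15, 40 and 11 members in the same order. Neutrophil markers were present in 69, 2, 1 and 1 members. Blood endothelial markers were summed as CPM (the UMIs of a gene scaled to the summed UMIs of the members), and gave 41.2 in single 35 Gy, day 7, 612 in 5 × 7 Gy, day 7, 450 in 5 × 7 Gy, day 14 and 108 CPM in the control. In the other barcodes they gave 420, 419, 1241 and 449 CPM in the same order. Macrophage or monocyte markers summed to 1750, 520, 681 and 1199 CPM in members, and to 4457, 317, 2124 and 346 CPM in the other barcodes. Neutrophil markers summed to 1350, 226, 4.28 and 13.5 CPM in members, and to 3033, 31.65, 119 and 21.3 CPM in the other barcodes. Fibroblast markers summed to 396 in single 35 Gy, day 7, 134 in 5 × 7 Gy, day 7, 1435 in 5 × 7 Gy, day 14 and 2938 CPM in the control. In the other barcodes they summed to 1971 in single 35 Gy, day 7, 736 in 5 × 7 Gy, day 7, 36960 in 5 × 7 Gy, day 14 and 21830 CPM in the control. The endothelial gene Cdh5 was present in 3 of 72 members of 5 × 7 Gy, day 7 and 11 of 67 of 5 × 7 Gy, day 14, and in 0 members of single 35 Gy, day 7 and of the control. At the threshold, 31 members had exactly 3 lymphoid UMIs, of which 80.6% held Ptprc, and 79 barcodes with 3 or more UMIs of only 1 lymphoid gene fell outside, of which 83.5% held it. Barcodes with 2 lymphoid UMIs numbered 93, and 67.7% of them held Ptprc.

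Depth differed between libraries and limits what can be read from each. Members had a median of 3711 UMIs in single 35 Gy, day 7, 1315 in 5 × 7 Gy, day 7, 3123 in 5 × 7 Gy, day 14 and 2684 in the control. Their summed counts were 606825 UMIs in single 35 Gy, day 7, 119251 in 5 × 7 Gy, day 7, 233480 in 5 × 7 Gy, day 14 and 74210 in the control. The day 7 fractionated members were thus the shallowest, and the control members, at 26, were too few for expression ratios. No member barcode sequence was shared between libraries, and Scrublet, a doublet caller, marked 2 members, both of single 35 Gy, day 7.

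One set of members went against the label. Siglech, which encodes a receptor known from plasmacytoid dendritic cells, was found in 18 of 144 members of single 35 Gy, day 7, 3 of 72 of 5 × 7 Gy, day 7, 2 of 67 of 5 × 7 Gy, day 14 and 0 of 26 of the control. In these 23 barcodes Cd3g and Cd2 were each present in 21, which is how they met the rule, while Cd3e and Cd3d were present in 0. All 23 held Irf8, Blnk and Tyrobp, and 22 held Cd74 and RT1-Da, genes of MHC class II antigen presentation. Their median depth was 6742 UMIs, against 2776 in the other members. They are called Siglech barcodes here. Without them, the share of members was 1.29% in single 35 Gy, day 7, 0.76% in 5 × 7 Gy, day 7, 0.645% in 5 × 7 Gy, day 14 and 0.22% in the control, and the ratio to the control was 5.88 for single 35 Gy, day 7, 3.45 for 5 × 7 Gy, day 7 and 2.93 for 5 × 7 Gy, day 14.

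Most members held a T cell receptor chain. Cd3e or Cd3d, both genes of the rule, were present in 118 of 144 members of single 35 Gy, day 7 (81.9%), 54 of 72 of 5 × 7 Gy, day 7 (75.0%), 47 of 67 of 5 × 7 Gy, day 14 (70.1%) and 15 of 26 of the control (57.7%, 36.9 to 76.7). Without the Siglech barcodes the share in single 35 Gy, day 7 was 93.7%. As a share of all kept barcodes they made up 1.21% in single 35 Gy, day 7, 0.595% in 5 × 7 Gy, day 7, 0.466% in 5 × 7 Gy, day 14 and 0.127% in the control. After each barcode was thinned to 1000 UMIs, the share of members with either chain was 63.2% in single 35 Gy, day 7, 75.0% in 5 × 7 Gy, day 7, 50.7% in 5 × 7 Gy, day 14 and 52.0% in the control. Thinning left out 20 of the 72 members of 5 × 7 Gy, day 7 and 1 of the 26 of the control, which were shallower. Both genes chose the members, so no comparison is drawn from them. Cd8a or Cd8b, the coreceptor chains of killer T cells, were found in 15 members of single 35 Gy, day 7, 10 of 5 × 7 Gy, day 7, 14 of 5 × 7 Gy, day 14 and 8 of the control, with wide intervals that overlap. Cd4 was found in 25 members of single 35 Gy, day 7, 2 of 5 × 7 Gy, day 7, 4 of 5 × 7 Gy, day 14 and 0 of the control. At 1000 UMIs the share with a Cd4 UMI was 2.78% in single 35 Gy, day 7, 0% in 5 × 7 Gy, day 7, 1.49% in 5 × 7 Gy, day 14 and 0% in the control, a level near 1 UMI at which no order is read.

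Foxp3 was found in more members of single 35 Gy, day 7 than of any other library. It was present in 32 of 144 members of single 35 Gy, day 7 (22.2%, 15.7 to 29.9), 8 of 72 of 5 × 7 Gy, day 7 (11.1%, 4.92 to 20.7), 4 of 67 of 5 × 7 Gy, day 14 (5.97%, 1.65 to 14.6) and 0 of 26 of the control. A count of 0 allows up to 11.5% of control members with a Foxp3 UMI by the floor of 3 counts, and up to 13.2% by the exact interval. At most 0.283% of Krt5-rich or endothelial barcodes of single 35 Gy, day 7 held it. The 5 × 7 Gy, day 7 share of kept barcodes with member status and Foxp3 was 0.268 times that of single 35 Gy, day 7 (0.107 to 0.594). That ratio is not matched for depth, at a median of 1315 UMIs in members of 5 × 7 Gy, day 7 and 3711 in those of single 35 Gy, day 7. As a level, Foxp3 gave 67.1 CPM in 5 × 7 Gy, day 7 and 90.6 CPM in single 35 Gy, day 7. The log2 ratio of -0.43 had an interval that holds no change (-1.72 to 0.64). Thinned to 1000 UMIs, the shares of members were 6.94% in single 35 Gy, day 7, 3.85% in 5 × 7 Gy, day 7 and 2.99% in 5 × 7 Gy, day 14, with overlapping intervals. Of the 32 Foxp3 barcodes of single 35 Gy, day 7, 30 held Cd3e, 28 Icos (a costimulator), 26 Tnfrsf18 (GITR), 21 Tnfrsf4 (OX40), 21 Il2ra (the high-affinity chain of the interleukin-2 receptor), 17 Tnfrsf9 (4-1BB) and 15 Ctla4 (a checkpoint receptor). Among the 112 other members of that library the same genes were present in 66 for Icos, 51 for Tnfrsf18, 35 for Tnfrsf4, 36 for Il2ra, 19 for Tnfrsf9 and 15 for Ctla4. None of the 32 held Nkg7 or Il17a. Cd3e and Nkg7 belong to the rule, so their counts are description.

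Interleukin-17 transcripts were found mostly at day 14. Il17a or Il17f was present in 7 of 144 members of single 35 Gy, day 7 (4.86%, 1.98 to 9.76), 0 of 72 of 5 × 7 Gy, day 7, 30 of 67 of 5 × 7 Gy, day 14 (44.8%, 32.6 to 57.4) and 1 of 26 of the control (3.85%, 0.0973 to 19.6). The count of 0 allows up to 4.17% of members with a UMI by the floor of 3 counts and up to 4.99% by the exact interval. At a median of 1315 UMIs it does not limit how many cells expressed the genes at levels too low to be captured. At 1000 UMIs a barcode the day 14 share was 37.3% (25.8 to 49.99), against 2.08% in single 35 Gy, day 7, 0% in 5 × 7 Gy, day 7 and 4% in the control. The 0% rests on the 52 members of 5 × 7 Gy, day 7 with that depth and allows up to 6.85%. In day 14 barcodes of other types, 0.374% of Krt5-rich and 0.193% of endothelial barcodes held either gene. Members did not hold all of it, since the other 10013 kept barcodes of 5 × 7 Gy, day 14 gave 501 Il17a UMIs in 41 barcodes, beside the members' 536. Of those, 402 UMIs in 18 barcodes lay in barcodes that met the lymphoid terms of the rule but were left out by its exclusions, 339 of them in 16 barcodes with a myeloid UMI. A further 73 UMIs lay in 8 barcodes with some lymphoid UMI below the threshold, and 26 in 15 barcodes with none. In single 35 Gy, day 7, 43 Il17a UMIs lay in 2 barcodes outside the members, and in 5 × 7 Gy, day 7 and the control 0 did. Il17a gave 15 UMIs in 7 members of single 35 Gy, day 7, 0 in 5 × 7 Gy, day 7, 536 in 29 members of 5 × 7 Gy, day 14 and 10 in 1 member of the control. Its level was 24.7 in single 35 Gy, day 7, 0 in 5 × 7 Gy, day 7, 2296 in 5 × 7 Gy, day 14 and 135 CPM in the control. The day 14 barcodes with Il17a held 1 to 70 UMIs, with a median of 11, and the highest carried 13.1% of the sum, so no single barcode made the level. Il17f gave 5 UMIs in 3 members of single 35 Gy, day 7, 0 in 5 × 7 Gy, day 7, 59 in 10 members of 5 × 7 Gy, day 14 and 0 in the control. No day 14 control was analysed here, so day 14 values are set against the day 7 control throughout.

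The 30 interleukin-17 barcodes of 5 × 7 Gy, day 14 seldom held killing genes. Cd3e was present in 26, Cd3g in 26, Cd3d in 21 and Cd247 in 18. These 4 genes and Nkg7 belong to the rule, and a member without Nkg7 had to meet it by the other genes. Their counts are thus description, and no contrast is drawn from them. Cd8a was present in 4 and Cd4 in 0. Nkg7, Ccl5, Gzma, Gzmk and Gzmm were each present in 0, and Prf1 in 4. Among the 37 other members of that library Nkg7 was present in 18, Prf1 in 14, Gzmk in 13, Gzmm in 13, Ccl5 in 11 and Cd3e in 13. The interleukin-17 barcodes held Icos in 24, Il2ra in 17, Ikzf3 (the lymphoid factor Aiolos) in 19, Itgae (the CD103 integrin, which binds epithelial E-cadherin) in 12, Rora (a transcription factor of interleukin-17 cells) in 11 and Ccr6 (the receptor for Ccl20) in 10. Over all members Il22 gave 6 UMIs in single 35 Gy, day 7, 0 in 5 × 7 Gy, day 7, 5 in 5 × 7 Gy, day 14 and 1 in the control. Which T cell receptor type these barcodes used was not analysed here, since the constant-chain genes did not match feature names. Cdh5 was present in 4 of the 30 and in 7 of the 37, and its part in the result was not tested.

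Killing genes were spread over all 4 libraries. At least 1 UMI of perforin (Prf1) or a granzyme was found in 26 of 144 members of single 35 Gy, day 7 (18.1%, 12.2 to 25.3), 17 of 72 of 5 × 7 Gy, day 7 (23.6%, 14.4 to 35.1), 22 of 67 of 5 × 7 Gy, day 14 (32.8%, 21.9 to 45.4) and 10 of 26 of the control (38.5%, 20.2 to 59.4). As a share of kept barcodes they were 3.15 times the control's in single 35 Gy, day 7 (1.47 to 7.33), 2.21 times in 5 × 7 Gy, day 7 (0.957 to 5.41) and 2.58 times in 5 × 7 Gy, day 14 (1.17 to 6.10). Members with 2 or more UMIs of NK genes and no Cd3e, Cd3d or Siglech numbered 8 in single 35 Gy, day 7, 13 in 5 × 7 Gy, day 7, 17 in 5 × 7 Gy, day 14 and 9 in the control. Their share of members was 5.56% (2.43 to 10.7) in single 35 Gy, day 7, 18.1% (9.98 to 28.9) in 5 × 7 Gy, day 7, 25.4% (15.5 to 37.5) in 5 × 7 Gy, day 14 and 34.6% (17.2 to 55.7) in the control. As a share of kept barcodes they were 1.08 times the control's in single 35 Gy, day 7 (0.362 to 3.15), 1.88 times in 5 × 7 Gy, day 7 (0.743 to 4.98) and 2.21 times in 5 × 7 Gy, day 14 (0.934 to 5.64), and each interval holds 1.

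Further sets could not be read. Members with 2 or more UMIs of type 2 innate lymphoid genes and no Cd3e, Cd3d or Siglech numbered 0 in single 35 Gy, day 7, 0 in 5 × 7 Gy, day 7, 3 in 5 × 7 Gy, day 14 and 2 in the control. Among the deeper Krt5-rich barcodes the same gene count was met by 22.2% in single 35 Gy, day 7, 1.51% in 5 × 7 Gy, day 7, 58.8% in 5 × 7 Gy, day 14 and 45.1% in the control, and at 1000 UMIs by 0.755% in single 35 Gy, day 7, 0.125% in 5 × 7 Gy, day 7, 14.0% in 5 × 7 Gy, day 14 and 4.45% in the control. Endothelial barcodes met it in 3.21% in 5 × 7 Gy, day 14 and 3.43% in the control, and in 0% of either at 1000 UMIs. On 3 and 2 members no share was read. Mki67 or Top2a, genes of dividing cells, was present in 15 members of single 35 Gy, day 7, 5 of 5 × 7 Gy, day 7, 4 of 5 × 7 Gy, day 14 and 1 of the control, a share below that of Krt5-rich barcodes in each library, and no cycling was read from it. Among cytokines, Ifng gave 2 UMIs in single 35 Gy, day 7, 0 in 5 × 7 Gy, day 7, 5 in 5 × 7 Gy, day 14 and 9 in the control, while Tnf, Il13 and the checkpoint gene Pdcd1 gave 0 UMIs in members and in all other kept barcodes.

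**Figure D2:**
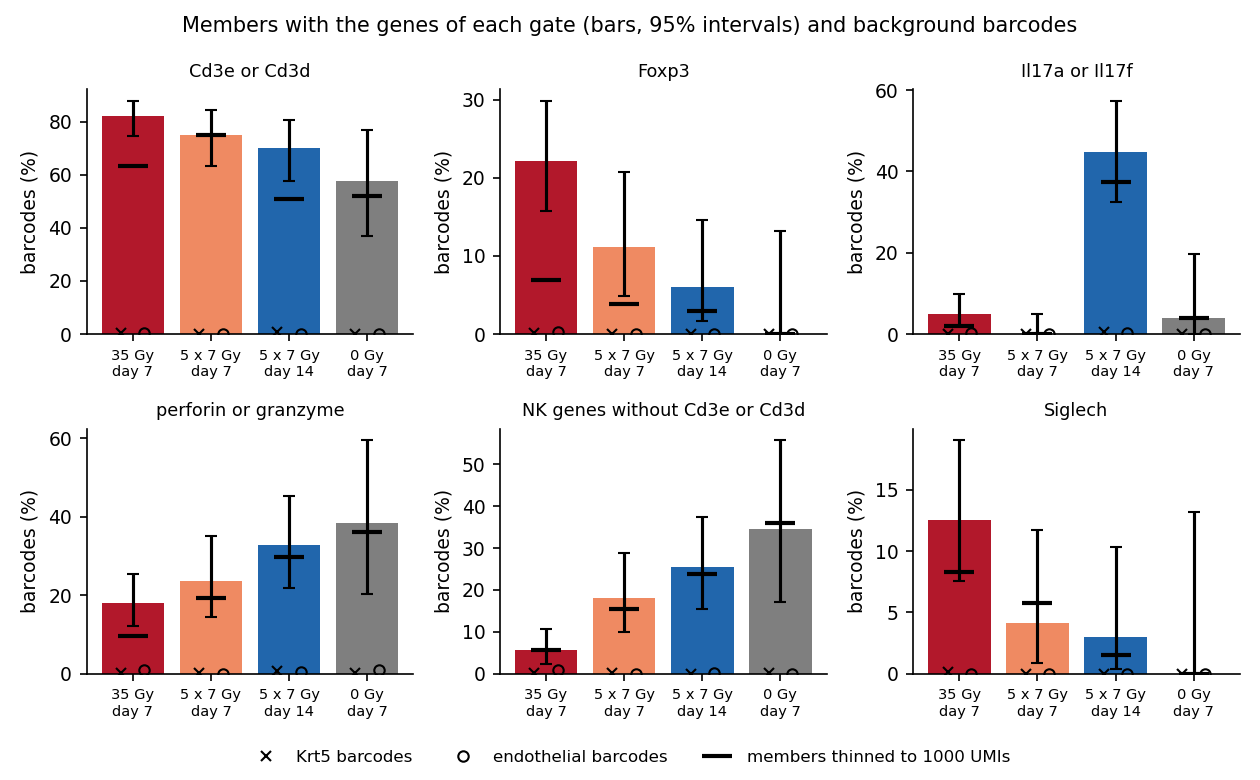
Percent of members with the named transcripts in each library, with exact 95% binomial intervals, in bars, with a dash for the share after thinning to 1000 UMIs and symbols for Krt5-rich and endothelial barcodes. The interleukin-17 bar is highest at 5 × 7 Gy, day 14 (44.8%), the Foxp3 and Siglech bars are highest in single 35 Gy, day 7, and the NK bar is lowest there (5.56%).

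The members of all 4 libraries were also pooled and clustered, which gave 8 clusters. Genes that lead a cluster were used to form it and are description, and clusters held mostly by 1 library may be that library and not a cell type. A cluster was named only where listed markers of that type were among its leading genes and none of another type outnumbered them. Not every cluster that met this was named. Cluster 1 met it by 2 neutrophil markers, cluster 2 by 1 CD4 T cell marker and cluster 3 by 1 dendritic cell marker, and these were left unnamed.

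Cluster 5, with 23 barcodes, was NK cell-like. Its leading genes were Xcl1 (a chemokine that attracts cross-presenting dendritic cells), Ncr1 (the NKp46 receptor), Nkg7, Gzmk, Gzmm, Ctsw and the receptors Klrb1c and Klri1. Of 18 NK markers, 14 were at least 2-fold above the other members. So were 3 of 5 CD8 T cell markers, Cd8a, Cd8b and Gzmk. Cd3d was present in 8 of its 23 barcodes, Cd3e in 6 and Cd8a in 9, so T cells in it were not set apart from NK cells. It drew 9 barcodes from single 35 Gy, day 7, 13 from 5 × 7 Gy, day 7 and 1 from the control.

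Cluster 8, with 50 barcodes, was gamma-delta or type 3 lymphocyte-like by Il17a and Il17f, which stood 177-fold and 58.5-fold above the other members. It held 29 of the 37 barcodes with Il17a in all libraries, and it drew 45 barcodes from 5 × 7 Gy, day 14 and 5 from the control. Only 4 of its 11 listed markers were at least 2-fold higher, and its other leading genes included Tnfaip3, Nfil3, Nr4a3, Tiparp and Cxcr4. It also held Fabp4, a gene of capillary endothelium and fat, in 25 barcodes.

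Cluster 6, with 17 barcodes, was led by Lef1, Tcf7 and S1pr1, genes of T cells that recirculate, and was naive or central memory T cell-like. It drew 12 of its 17 barcodes from the control. The fibroblast genes Dpt and Mfap5 were also among its leaders, and fibroblast markers summed to 2207 CPM in it, against 720 CPM in the other members.

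The other clusters stayed unnamed. Cluster 1, with 86 barcodes, was led by Slpi, S100a8, S100a9 and Lyz2, genes of neutrophils and other myeloid cells, together with Tnfrsf9 and Icos. Cd3d was present in 72 of its 86 barcodes, and 71.7% of the S100a9 UMIs in members of single 35 Gy, day 7 lay in 1 barcode. Cluster 2, with 56 barcodes, held Cd3d in 51 and was led by genes that include Cd226, Cd40lg and Sit1. Cluster 3, with 24 barcodes, was led by Siglech, Blnk, Ptcra and Bcl11a, and all 23 Siglech barcodes lay in it. Cluster 4, with 24 barcodes, had the highest Foxp3 level, at 348 CPM, and 5 of 6 regulatory T cell markers at least 2-fold up, but none among its 10 leading genes, which included Il1rl1 (the interleukin-33 receptor) and Izumo1r. Cluster 7, with 29 barcodes, of which 18 were from 5 × 7 Gy, day 14 and 8 from the control, had 13 of 18 NK markers and 8 of 8 blood endothelial markers at least 2-fold up. Gzma, Gzmbl2 and Klrg1 led it beside the endothelial genes Egfl7, Fabp4, Igfbp7 and Cavin2.

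**Figure D3:**
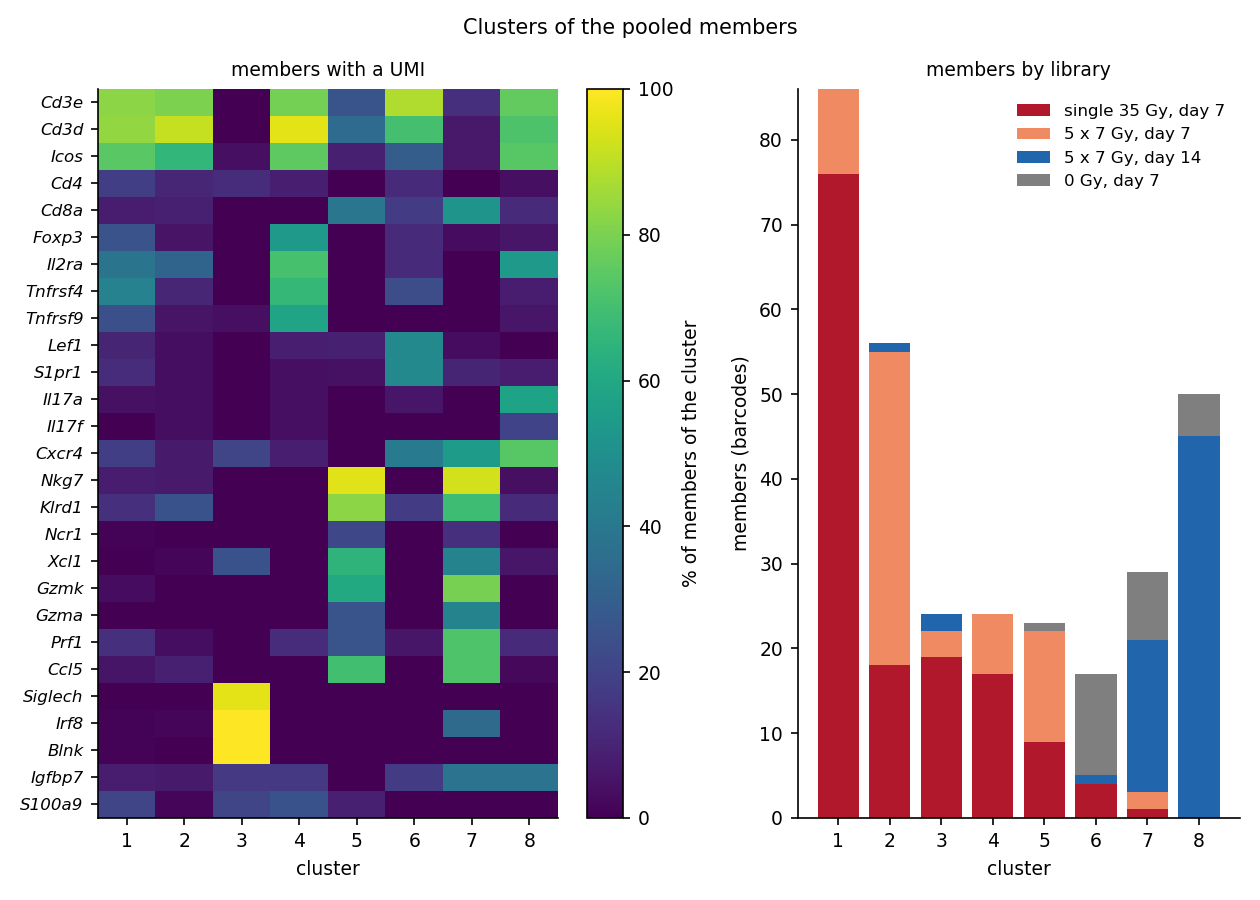
Members pooled over the 4 libraries and clustered into 8 clusters, as the percent of each cluster with a UMI of the named genes (left) and the number of barcodes from each library (right, the control as 0 Gy). Clusters 1 to 4 are mostly day 7 irradiated barcodes, and cluster 8 is mostly 5 × 7 Gy, day 14.

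At day 7, the members of the fractionated library carried more killing and NK receptor transcript and less tumor necrosis factor receptor family transcript than those of the single-dose library. Expression was compared as summed UMIs of the members, and a gene needed 20 UMIs over both libraries to enter. Of 4003 genes, 5.35% were at least 2-fold higher in 5 × 7 Gy, day 7 than in single 35 Gy, day 7 and 20.2% at least 2-fold lower, and the median log2 ratio of all genes was -0.25. Of 11 cytotoxic genes, 5 were at least 2-fold higher and 0 lower, with a median of 0.70. Of 9 NK receptor genes, 6 were at least 2-fold higher and 0 lower, with a median of 1.27. Of 7 genes of the tumor necrosis factor receptor family, 1 was at least 2-fold higher and 5 lower, with a median of -2.47. These ratios compare 1 library with 1 library and have no replicate check. A call is by size alone, and of 98 calls among listed genes here, 30 had an interval that holds no change, against 3 of 97 in the later comparison of day 14 with day 7.

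Among killing genes, Gzma (granzyme A) gave 537 CPM in 5 × 7 Gy, day 7 and 56.0 CPM in single 35 Gy, day 7, a log2 ratio of 3.26 (2.64 to 3.91). It rested on 64 UMIs in 3 barcodes of 5 × 7 Gy, day 7, with 60.9% in 1 of them, and on 34 UMIs in 5 barcodes of single 35 Gy, day 7. Prf1, the pore-forming protein perforin, gave 243 CPM in 5 × 7 Gy, day 7, with 48.3% of its UMIs in 1 barcode, and 57.7 CPM in single 35 Gy, day 7 (2.08, 1.31 to 2.83). Gzmm gave 545 CPM in 15 barcodes of 5 × 7 Gy, day 7 and 170 CPM in 10 barcodes of single 35 Gy, day 7 (1.68, 1.21 to 2.14). In 5 × 7 Gy, day 7, Gzmm was thus spread over more barcodes than Gzma or Prf1. Ctsw (1.32) and Serpinb9 (1.20), a protease and a granzyme inhibitor of killer cells, were also at least 2-fold higher. In the control members, Gzma gave 1105 CPM, Prf1 620 CPM and Gzmm 1172 CPM, above all 3 irradiated libraries. These control levels rested on 8 barcodes for Gzma, 8 for Prf1 and 9 for Gzmm, with 43.5% of the Prf1 UMIs in 1 barcode. No ratio to the control was taken.

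Ccl5, a chemokine made by killer lymphocytes, gave 6096 CPM in 21 barcodes of 5 × 7 Gy, day 7 and 704 CPM in 7 barcodes of single 35 Gy, day 7 (log2 ratio 3.12, 2.94 to 3.29). In 5 × 7 Gy, day 14 it gave 2608 CPM in 11 barcodes and in the control 8382 CPM in 9 barcodes. The single-dose members were the lowest of the 4.

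Klrd1 (CD94, an NK receptor for class I MHC) gave 478 CPM in 20 barcodes of 5 × 7 Gy, day 7 and 80.8 CPM in 25 barcodes of single 35 Gy, day 7 (2.56, 1.99 to 3.15). Klrb1a, a C-type lectin receptor of NK cells, gave 327 CPM in 5 × 7 Gy, day 7 and 93.9 CPM in single 35 Gy, day 7 (1.80, 1.17 to 2.41). The other NK receptor genes at least 2-fold higher were Klrc3 (1.93), Cd226 (1.72), the adaptor Hcst (1.27) and the adaptor Fcer1g (1.10). Nkg7, which belongs to the rule, gave 897 CPM in 5 × 7 Gy, day 7 and 226 CPM in single 35 Gy, day 7. Cxcr6 (2.23), a chemokine receptor of tissue-resident lymphocytes, was higher as well. Entpd1 (CD39) had a log2 ratio of 3.93, but 87.5% of its 24 UMIs in 5 × 7 Gy, day 7 lay in 1 barcode.

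Costimulatory receptors ran the other way. Tnfrsf9 (4-1BB) gave 25.2 CPM in 3 barcodes of 5 × 7 Gy, day 7 and 346 CPM in 36 barcodes of single 35 Gy, day 7, a log2 ratio of -3.78 (-6.07 to -2.21). Tnfrsf18 (GITR) gave 33.5 CPM in 5 × 7 Gy, day 7 and 305 CPM in single 35 Gy, day 7 (-3.18, -5.07 to -1.80). Tnfrsf4 (OX40) gave 58.7 CPM in 5 × 7 Gy, day 7 and 325 CPM in single 35 Gy, day 7 (-2.47, -3.80 to -1.40). Tnfrsf14 (-3.27) was also lower. Cd27 (-1.07, -3.42 to 0.61) was past 2-fold lower and Tnfrsf1b (1.26, -0.16 to 2.55), the second receptor for tumor necrosis factor, past 2-fold higher, both with intervals that hold no change. Ctla4 gave 0 UMIs in 5 × 7 Gy, day 7 and 53 in single 35 Gy, day 7, and was at least 3.47-fold lower against a floor of 3 UMIs in the library.

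Of 10 cytokine receptor genes, 6 were at least 2-fold lower in 5 × 7 Gy, day 7 and 0 higher, with a median of -1.11. Of 18 genes of the T cell receptor complex and its signalling, 1 was at least 2-fold higher (Cd8a, 1.15), with a median of -0.33. Another 4 were lower (Cd5, Cd6, Cd4 and Cd27, the last 3 with intervals that hold no change). The CD3 chains and Cd247 of this complex chose the members, so no comparison is drawn from that median. The lineage transcription factors had 0 of 11 at least 2-fold higher and 3 lower, with a median of -0.43. The MHC class II list stood at a median of -0.52 with all members and -1.27 without the Siglech barcodes.

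Stress genes moved between the same libraries. Of 15 immediate-early genes, 11 were at least 2-fold lower in 5 × 7 Gy, day 7 and 0 higher, with a median of -1.65. Of 10 heat-shock genes, 8 were lower and 0 higher, with a median of -1.36. Immediate-early genes summed to 1182 CPM in members of 5 × 7 Gy, day 7 and 3980 CPM in those of single 35 Gy, day 7, and to 650 CPM in the other barcodes of 5 × 7 Gy, day 7 and 2864 CPM in those of single 35 Gy, day 7. Depth moved with them as well, at a median of 1315 UMIs in members of 5 × 7 Gy, day 7 and 3711 in those of single 35 Gy, day 7. The part of depth, and of whatever set the stress genes, in the other differences was not tested. Gadd45b (-4.93, -10.24 to -2.43) and the AP-1 genes Fosb (-3.49) and Junb (-2.75) were among the 10 lower genes ranked first.

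**Figure D4:**
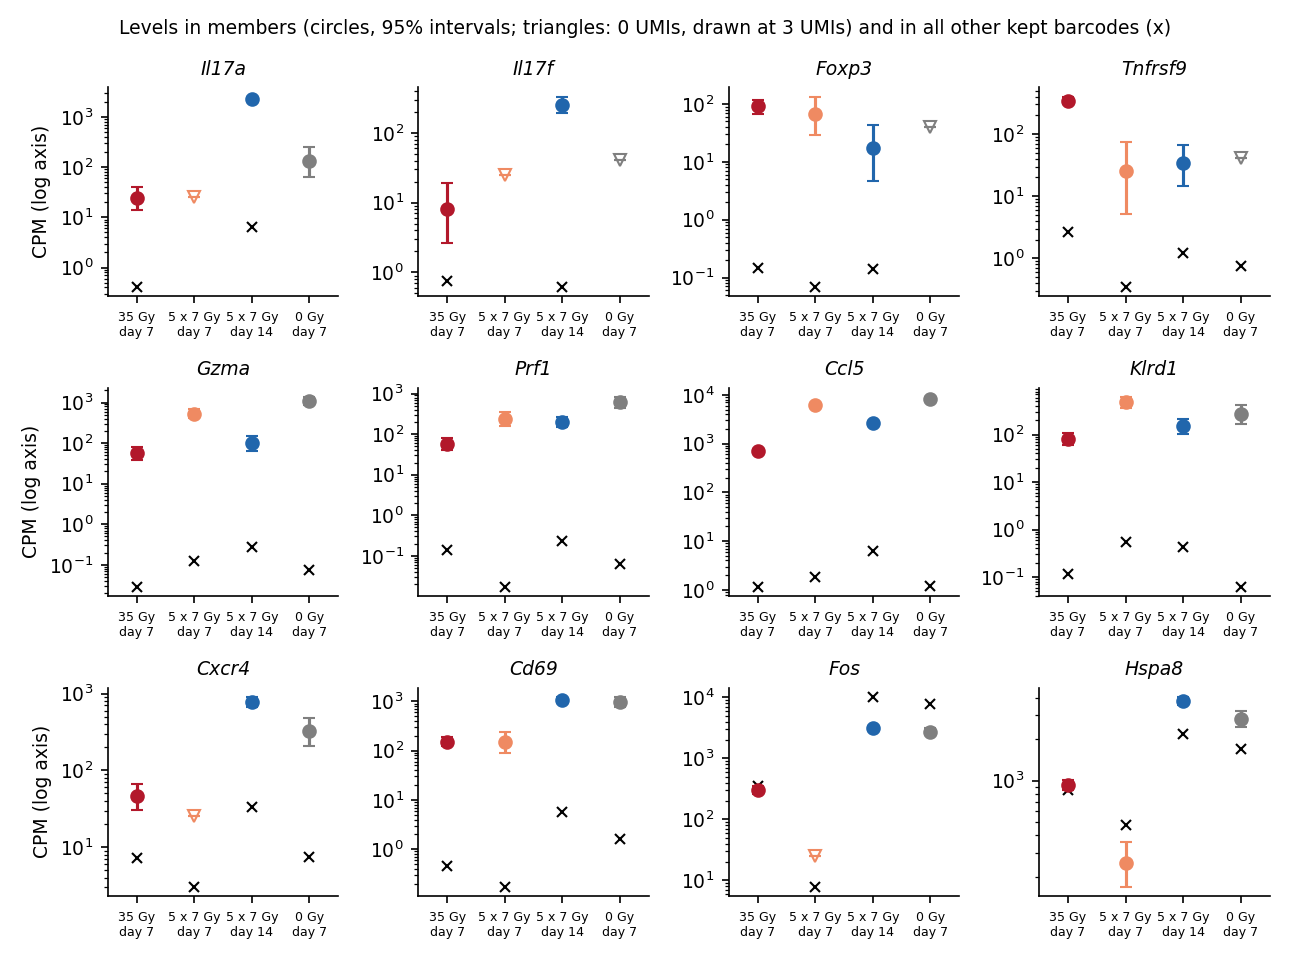
Levels (CPM on a log axis, exact 95% Poisson intervals) of 12 genes in the members of each library as circles, with the other kept barcodes as crosses and the control as 0 Gy. Triangles mark genes at 0 UMIs, drawn at the floor of 3 UMIs. Il17a stands highest at 5 × 7 Gy, day 14 (2296 CPM), and Fos and Hspa8 follow the other barcodes of their library.

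From day 7 to day 14 of the fractionated schedule, interleukin-17, tissue-residency and stress transcripts were higher in the members, and Ccl5, Gzma and Klrd1 were lower. Of 2176 genes, 20.9% were at least 2-fold higher at day 14 than at day 7 and 10.2% at least 2-fold lower, with a median log2 ratio of 0.08 over all genes. Scaling by the median of gene ratios in place of CPM moved that median to 0.43, and moved the higher part of the called genes to 85.1%, against 67.3% with CPM. The values below are by CPM.

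Il17a was at least 91.3-fold higher at day 14 and Il17f at least 10.0-fold higher, each set against a floor of 3 UMIs in the day 7 library. Of 9 lineage transcription factors, 4 were at least 2-fold higher and 0 lower, with a median of 0.84. They were Nfil3 (3.91), which several lymphoid lineages need, Rora (2.98), Prdm1 (2.73, Blimp-1) and Ikzf3 (2.51). Ikzf3 gave 334 CPM in 5 × 7 Gy, day 14 and 58.7 CPM in 5 × 7 Gy, day 7, and it gave 89.0 CPM in single 35 Gy, day 7 and 148 CPM in the control. The whole list summed to 2150 CPM in members of 5 × 7 Gy, day 14, 1442 CPM in those of 5 × 7 Gy, day 7 and 2223 CPM in those of the control. In the other barcodes it also rose, from 160 CPM in 5 × 7 Gy, day 7 to 586 CPM in 5 × 7 Gy, day 14. The part of that library-wide change in the members was not tested.

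Of 11 tissue-residency genes, 7 were at least 2-fold higher at day 14 and 0 lower, with a median of 2.82. Cxcr4, the receptor for the stromal chemokine Cxcl12, gave 780 CPM in 47 of 67 members of 5 × 7 Gy, day 14 and 0 UMIs in 5 × 7 Gy, day 7, at least 31.0-fold higher. It gave 46.1 CPM in single 35 Gy, day 7 and 323 CPM in the control. Cd69, which holds lymphocytes in tissue by blocking S1pr1, gave 1062 CPM in 49 members of 5 × 7 Gy, day 14, 151 CPM in 15 members of 5 × 7 Gy, day 7, 152 CPM in single 35 Gy, day 7 and 970 CPM in the control. Rgs1 and Rgs2, which damp chemokine receptor signalling, gave 1058 and 784 CPM in 5 × 7 Gy, day 14, 83.9 and 25.2 CPM in 5 × 7 Gy, day 7 and 620 and 296 CPM in the control. For Cd69 and Rgs1 the control members lay nearer to the day 14 members than the day 7 members did.

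Of 23 immediate-early genes, 23 were at least 2-fold higher at day 14, with a median of 3.42, and of 10 heat-shock genes all 10 were, with a median of 3.87. Of 8 NF-κB genes, 6 were at least 2-fold higher and 0 lower, with a median of 3.34. The other barcodes of these libraries moved too. Immediate-early genes summed to 23450 CPM in members of 5 × 7 Gy, day 14 and 1182 CPM in those of 5 × 7 Gy, day 7, and to 44830 CPM in the other kept barcodes of 5 × 7 Gy, day 14 and 650 CPM in those of 5 × 7 Gy, day 7. Control members, at 22930 CPM, and other control barcodes, at 40210 CPM, were close to the day 14 library. Nfkbia, the NF-κB inhibitor, gave 1293 CPM in members of 5 × 7 Gy, day 14 and 33.5 CPM in those of 5 × 7 Gy, day 7, beside 1282 CPM in the other barcodes of 5 × 7 Gy, day 14 and 42.7 CPM in those of 5 × 7 Gy, day 7. Only 7 of the 23 immediate-early genes and 5 of the 10 heat-shock genes were at least as high in members of 5 × 7 Gy, day 14 as in its other barcodes. Of the 11 residency genes, 10 were. Cd69 was already higher in members (151 CPM) than in the other barcodes (0.174 CPM) of 5 × 7 Gy, day 7. For such a gene the count does not bear on the part of the stress genes. Cd69, Cxcr4, Rgs1 and Rgs2 are also known as genes that stimulation induces, and the part of the library-wide stress genes in their levels was not tested.

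Among cytotoxic genes, 0 of 11 were at least 2-fold higher at day 14 and 1 was lower, Gzma (98.5 CPM in 5 × 7 Gy, day 14, 537 CPM in 5 × 7 Gy, day 7, log2 ratio -2.45), with a median of -0.23. At day 14, 78.3% of its 23 UMIs lay in 1 barcode. Of 9 NK receptor genes, 3 were at least 2-fold lower, Klrd1 (-1.67), Fcer1g (-1.50) and Hcst (-1.08), and 0 higher, with a median of -0.91. The T cell receptor complex had a median of -0.09 over 13 genes, with 1 at least 2-fold higher and 0 lower. Its CD3 chains and Cd247 chose the members, so no comparison is drawn from that median. Of 5 chemokine genes, 4 were at least 2-fold higher, Ccl4 (3.65), Ccl2, Ccl3 and Xcl1, of which Ccl2 was lower in the day 14 members (141 CPM) than in the other day 14 barcodes (694 CPM), and Ccl5 was lower (-1.23, -1.38 to -1.07). Ccl4 gave 951 CPM in 18 barcodes of 5 × 7 Gy, day 14, 75.5 CPM in 6 barcodes of 5 × 7 Gy, day 7 and 3504 CPM in 10 barcodes of the control.

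**Figure D5:**
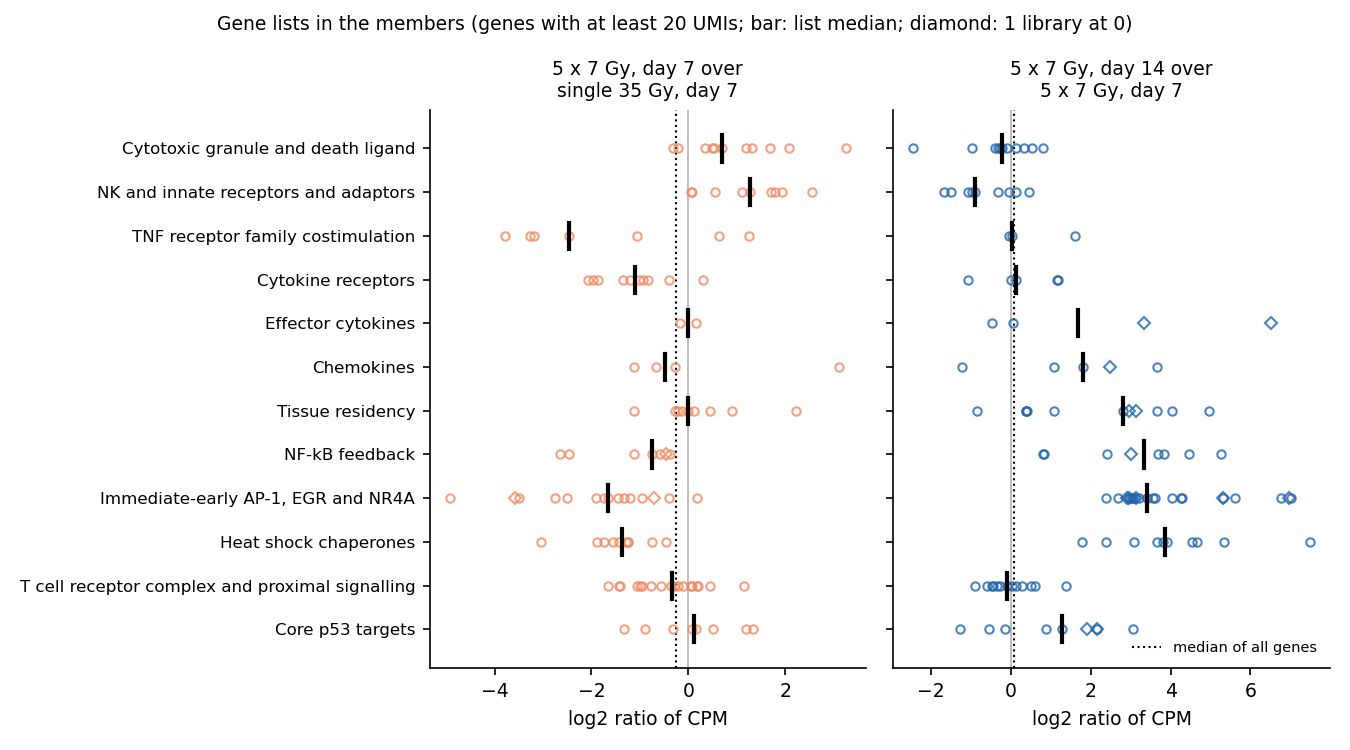
Median log2 ratio of the genes of each list in 5 × 7 Gy, day 7 over single 35 Gy, day 7 and in 5 × 7 Gy, day 14 over 5 × 7 Gy, day 7, as bars, with single genes as points (diamonds where 1 library had 0 UMIs, at a bound) and the median of all genes as a dotted line. NK receptor and cytotoxic lists lie above that line in the first comparison, and stress and residency lists lie far above it in the second.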

How the data were processed

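Single-cell RNA was captured with the 10x Genomics 3′ v3.1 chemistry, and the deposited matrices hold raw UMI counts of 32623 features per barcode, which the authors made with Cell Ranger 5.0.0 on builds named mRatBN7.2 and rn7, per the submitters' processing notes. The annotation release and the role of each build are not given in the sources used here. The 4 libraries held 45348 deposited barcodes and between 59805782 and 109618791 UMIs each. Il7r, Pecam1, Ccr2 and the T cell receptor constant-chain genes were matched to no feature name, so they are not analysed here, and the rule ran on 7 of its 8 lymphoid genes and endothelial barcodes were defined by at least 3 UMIs of Cdh5. Krt5-rich barcodes held over 20 Krt5 UMIs per 10000.

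Members and gene lists were chosen with earlier results of these data known. Shares carry Clopper-Pearson intervals, levels exact Poisson intervals, and ratios exact conditional binomial intervals, all at 95%. UMIs of members were summed per library and divided by their total (CPM). Ratios were taken between libraries with at least 50 members, over genes with 20 or more UMIs in both together, and a library at 0 UMIs was set to a floor of 3. Called means at least 2-fold. No p-value was computed. Named genes were the 10 higher and 10 lower per comparison whose interval bound lay farthest from no change, among genes with at least 50 UMIs that were at least as high in members as in the other barcodes of the library where they were higher, besides genes of 22 lists and 23 marker classes (404 of 421 and 177 of 191 listed genes matched). Genes given for how UMIs spread over barcodes, those counted in the Il17, Foxp3 and Siglech barcodes, and the count of Il17a outside the members, were chosen after their values were seen. Thinned shares used 1000 UMIs a barcode. Members were clustered with scanpy 1.11.5 (2000 variable genes, 20 components, 15 neighbours, Leiden resolution 1.0), with no doublet removal. The ratio code was tested on simulated counts. Between 26 and 38 barcode sequences were shared by any 2 libraries. Some items are not reported here.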

Additional observations from a re-analysis of the deposited data

How the results depend on the processing

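No paired analysis was possible because each group is 1 library. The ratios of each irradiated library to the control stayed above 1 under every alternative run. The day 14 to day 7 ratio of the fractionated libraries did not keep its direction. It was 1.09 with at least 1000 UMIs and at most 10% mitochondrial UMIs, 1.12 with 5 lymphoid UMIs over 3 genes, 1.08 with barcodes thinned to 1000 UMIs, 1.18 without the rule's exclusions and 0.399 over low-Krt5 barcodes. The cause was not tested. Over low-Krt5 barcodes the 5 × 7 Gy, day 7 share was 6.78 times the control's and 0.807 times that of single 35 Gy, day 7, and with 5 lymphoid UMIs it was 0.354 times that of single 35 Gy, day 7. In single 35 Gy, day 7, 5 × 7 Gy, day 7, 5 × 7 Gy, day 14 and the control, shares were 1.15%, 0.407%, 0.456% and 0.127% with 5 lymphoid UMIs and 0.828%, 0.431%, 0.464% and 0.0939% after thinning. Without the exclusions they were 1.88% in single 35 Gy, day 7 and 1.06% in 5 × 7 Gy, day 14. With at least 100 UMIs in the pair, 31 genes were at least 2-fold higher and 139 lower in 5 × 7 Gy, day 7 than in single 35 Gy, day 7, and 80 higher and 45 lower at day 14 than at day 7. Median-of-ratios scaling left 112 lower at day 14. Cdkn1a, at a log2 ratio of 1.35 for 5 × 7 Gy, day 7 over single 35 Gy, day 7, turned to -0.58 without members holding endothelial, mast or B cell genes. Thinning moved the Cd3e or Cd3d share to 63.2% in single 35 Gy, day 7 and 50.7% in 5 × 7 Gy, day 14, and leaving out Siglech barcodes moved it to 93.7% in single 35 Gy, day 7. It moved the Cd8a or Cd8b share to 10.4% in 5 × 7 Gy, day 14, Cd4 to 2.78%, 0% and 1.49% in the 3 irradiated libraries, Foxp3 to 6.94% in single 35 Gy, day 7 and 3.85% in 5 × 7 Gy, day 7, perforin or granzyme to 9.72% in single 35 Gy, day 7, and Mki67 or Top2a to 4.86% in single 35 Gy, day 7 and 0% in the control. The MHC class II median at day 7 was -1.34 with members weighted equally and -1.27 without Siglech barcodes, and at day 14 over day 7 it was -0.55 without them. The glycolysis median at day 14 over day 7 was 1.40 by median-of-ratios scaling. At resolution 0.5 there were 5 clusters, the cluster with most Gzmk held 15.9% of members and that with most Foxp3 37.5%. With doublets left out at resolution 1.0, the cluster with most Foxp3 held 12.7%, against 27.8% with all members. Of 284 list medians under alternatives, 280 stayed within the margin, as did 2585 of 2644 single-gene ratios. Leaving out the exclusions or Siglech barcodes, and refiltering the per-barcode shares, were alternatives chosen after seeing the data. Depth limits 5 × 7 Gy, day 7 and the control most, where a floor of 3 UMIs stands for 25.2 and 40.4 CPM.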

Other observations

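Further gene groups were described in the members. Of 6 checkpoint genes at day 7, 2 were at least 2-fold higher in 5 × 7 Gy, day 7 than in single 35 Gy, day 7, Cd96 (log2 ratio 2.15) and Entpd1, and 3 were lower, Ctla4, Lag3 (-1.28, -3.62 to 0.38) and Vsir (-2.00), with a median log2 ratio of -0.63. Cd96 gave 168 CPM in 5 × 7 Gy, day 7 and 37.9 CPM in single 35 Gy, day 7, and Vsir gave 25.2 CPM in 5 × 7 Gy, day 7 and 101 CPM in single 35 Gy, day 7. Lag3 and Vsir are inhibitory receptors, and Cd96 is a receptor of T and NK cells for nectin-like ligands. Ccr3, known as the eotaxin receptor, gave 1 UMI in 5 × 7 Gy, day 7 and 26 in single 35 Gy, day 7 (log2 interval -7.71 to 0.25). S1pr1, the receptor through which lymphocytes leave tissue, gave 58.7 CPM in 5 × 7 Gy, day 7 and 23.1 CPM in single 35 Gy, day 7, on 7 and 14 UMIs, with a log2 interval that holds no change (-0.20 to 2.75). Of 10 interferon-stimulated genes, 0 were higher and 3 lower, Ifi27, Irf7 and Mx1, with a median of -0.63, where 20.2% of all genes were at least 2-fold lower and the median of all genes was -0.25. The interval of Mx1 holds no change (-3.38 to 0.66). Of 10 glycolysis and hypoxia genes, 0 were higher and 4 lower, with Ldha at 361 CPM in 5 × 7 Gy, day 7 and 1000 CPM in single 35 Gy, day 7. In the other barcodes Ldha gave 502 CPM in 5 × 7 Gy, day 7 and 1211 CPM in single 35 Gy, day 7.

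Genes of the p53 response, which DNA damage induces, had a median of 0.12 over 8 genes in 5 × 7 Gy, day 7 over single 35 Gy, day 7 and of 1.28 over 9 genes in 5 × 7 Gy, day 14 over 5 × 7 Gy, day 7. Btg2 gave 2990 CPM in members of 5 × 7 Gy, day 14 and 361 CPM in those of 5 × 7 Gy, day 7, beside 3097 CPM in the other barcodes of 5 × 7 Gy, day 14 and 36.0 CPM in those of 5 × 7 Gy, day 7. Cdkn1a, the cell-cycle inhibitor p21, gave 244 CPM in members of 5 × 7 Gy, day 14 and 101 CPM in those of 5 × 7 Gy, day 7, below the other barcodes of each library by day 14 (867 CPM) and near them at day 7 (107 CPM). Pmaip1 (the BH3-only protein Noxa) gave 26 UMIs at day 14 and 0 at day 7. Of 6 cell division (G2/M) genes, Mki67, Top2a and Ube2c were at least 2-fold higher in 5 × 7 Gy, day 7 than in single 35 Gy, day 7, on 17, 20 and 16 UMIs in 5 × 7 Gy, day 7 and 38, 38 and 17 UMIs in single 35 Gy, day 7, and Tacc3 was lower with an interval that holds no change (-3.62 to 0.38). Mki67 was present in at least 1 barcode of 6 of the 8 clusters. Of 6 S phase genes 2 were lower and of 7 BCL2 family genes 2 were lower in 5 × 7 Gy, day 7 than in single 35 Gy, day 7 beside 20.2% of all genes. In the BCL2 family, at day 14 over day 7 Bcl2a1 was higher (420 CPM in 5 × 7 Gy, day 14, 185 CPM in 5 × 7 Gy, day 7).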
